A study of Mus musculus with 4 samples.

Results

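The mitochondrial genome of the mouse carries 37 genes, and all 37 had an entry, under a symbol that begins with mt-, among the 55421 genes of the count table. They were chosen by that prefix, with earlier results of these data known. They comprised 13 protein-coding genes, 2 rRNA genes and 22 tRNA genes, which are described separately here. The RNA came from primary spermatogonia (spermatogonial stem cell or SSC cultures) of the mouse and was captured by its poly(A) tails. The cultures were established from testes of 6-day-old CD1 pups and grown on a layer of irradiated mouse embryonic fibroblast (MEF) feeder cells in medium with N2, bFGF and GDNF. NRRA cultures received a nutrient restriction medium made with 90% Earle's Balanced Salt Solution (EBSS) together with 100 nM retinoic acid (RA) for 48 h. Veh (vehicle) cultures stayed in complete SSC medium without EBSS or RA, also for 48 h. No gene was altered by design in either group, and nutrient restriction and RA were given together, so that their effects cannot be told apart in this series. The 4 libraries were divided evenly, 2 for Veh and 2 for NRRA. The reporting summary of the study describes the replicates of its sequencing experiments as independent biological replicates, while the labels do not say from which cultures or mice each library came.

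Mitochondrial DNA is transcribed from both strands into long precursors that run across many genes. In these precursors the tRNAs lie between most mRNAs and rRNAs, and mRNAs and rRNAs are released largely by the excision of the tRNAs. The mRNAs encode core subunits of complexes I, III, IV and V of oxidative phosphorylation, complex II has none, and all other subunits as well as the factors that copy, transcribe, process and translate the mitochondrial genome are encoded in the nucleus. Most mammalian mitochondrial mRNAs receive a short poly(A) tail, which for some of them completes the stop codon, whereas mature tRNAs receive a CCA end. Copies of mitochondrial DNA have also been inserted into nuclear chromosomes during evolution.

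Because the libraries were made by oligo-dT capture, the 3' ends of the members are shown first. The 3 protein-coding members below end in the annotation on an incomplete stop codon, while the other 10 end on a complete one, shown for mt-Co1 and mt-Nd6. Each line gives the last 30 bases of the transcript in GENCODE M21 (GRCm38), 5′ to 3′, with the stop codon or its first base in capitals.

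mt-Co3: tatacgtctccatttattgatgaggatctT
mt-Nd4: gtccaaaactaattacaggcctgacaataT
mt-Cytb: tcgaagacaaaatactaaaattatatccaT
mt-Co1: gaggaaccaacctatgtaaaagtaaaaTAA
mt-Nd6: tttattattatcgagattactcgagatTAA

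The libraries held between 28022265 and 31604769 counts assigned to genes, so that 3 counts, used as the floor of detection, corresponded to 0.0920 to 0.110 CPM (counts scaled to a common library size by the TMM method). Counting intervals and this floor cover counting error only. Stra8, the RA-responsive gene needed for meiotic initiation, was at 9.61 and 10.07 CPM in Veh and at 1862 and 1851 CPM in NRRA. Across 20232 genes tested with the edgeR quasi-likelihood test, 56.4% were called at an adjusted p under 0.05, 28.4% lower and 27.9% higher in NRRA, and the median log2 fold change (NRRA over Veh) was 0.0003. Members are read against these shares. The common coefficient of variation between replicates, as estimated by edgeR, was 2.61%. Higher genes made up 49.6% of all calls, and 60.3% when libraries were scaled by their totals alone, which moved the median of all genes to 0.090. The 20 fibroblast feeder markers summed to 11926 and 11815 CPM in Veh and to 9106 and 8918 CPM in NRRA, with 17 called lower, 1 higher and none at 0 in all libraries, and the 10 germ cell markers summed to 2378 and 2447 CPM in Veh and to 2658 and 2652 CPM in NRRA, with 6 called higher and 3 lower. Both cell types contain mitochondria, and the part of their mixture in the results below was not tested.

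The protein-coding members took a smaller share of the library in NRRA. They held 2.86% and 2.80% of all counts under Veh and 2.40% in each library of the NRRA group. The group means were 2.83% ± 0.0387 in Veh and 2.40% ± 0.00131 in NRRA (SD, n = 2 each), a ratio of 0.849. The exact 95% binomial intervals of the libraries, which cover counting error only, did not overlap between the groups. Those of the 2 Veh libraries did not overlap each other either (2.850% to 2.862% and 2.795% to 2.807%), so they do not measure the spread between replicates. With 2 libraries against 2 an exact permutation test cannot reach 0.05, and its smallest two-sided p is 1 in 3. In such bulk samples fewer cells rich in mitochondrial RNA and less mitochondrial RNA per cell cannot be told apart.

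All 13 protein-coding members passed the filter on low counts. Of these, 11 fell, none rose, and mt-Nd3 and mt-Nd4l did not pass the test. At an unadjusted p under 0.05 there were 12 lower and 0 higher, and DESeq2 called 10 lower and 0 higher. Their median log2 fold change was -0.33, with a range from -0.90 for mt-Atp8 to -0.26 for mt-Cytb. Both NRRA libraries were below both Veh libraries for 12 of the 13, as they were for 38.6% of all genes tested, and both were above for none, against 38.1% of all genes.

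**Figure D1:**
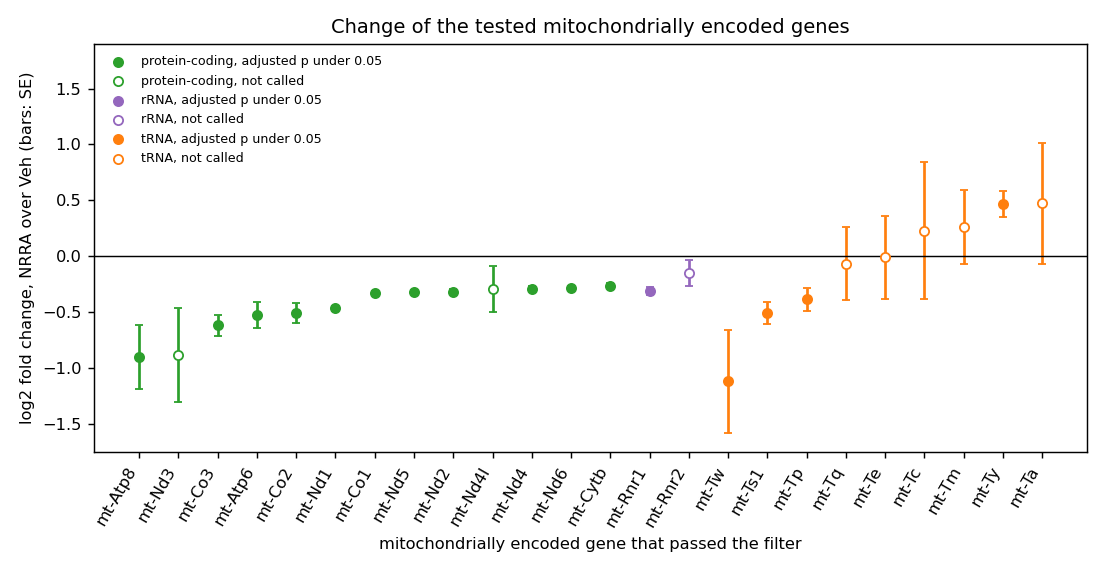
Log2 fold change (NRRA over Veh, y axis, bars are the standard error) of the 24 mitochondrially encoded genes that passed the filter, grouped by class on the x axis, with filled points for an adjusted p under 0.05 and open points otherwise. The 13 protein-coding genes all lie below 0, from -0.90 to -0.26, whereas the 9 tRNA genes spread from -1.12 to 0.47.

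The 7 members of complex I, the NADH dehydrogenase through which electrons enter the chain, were described first. The gene mt-Nd1 (chromosome M, 2751 to 3707, plus strand) encodes a core subunit of its membrane arm. It was at 3709 and 3646 CPM in Veh and at 2671 and 2645 CPM in NRRA. The groups did not overlap, and the log2 fold change was -0.47 (SE 0.018, adjusted p = 1.86e-17), a value of 0.723 of the Veh level. Among the 7 abundant mRNAs described below, mt-Nd1 had the lowest log2 fold change. The neighbouring membrane subunit mt-Nd2 (3914 to 4951) was at 1868 and 1940 CPM in Veh and at 1554 and 1501 CPM in NRRA. It fell by 0.32 on the log2 scale (SE 0.022, adjusted p = 2.64e-12) without overlap between the groups.

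The complex I genes described next share bases in pairs. The genes mt-Nd4l (9877 to 10173) and mt-Nd4 (10167 to 11544) overlap by 7 bases on the plus strand and are known to lie on 1 bicistronic mRNA. For mt-Nd4 the libraries held 1661 and 1597 CPM in Veh and 1316 and 1347 CPM in NRRA, and it fell by 0.29 (log2, SE 0.022, adjusted p = 1.26e-11). For mt-Nd4l they held only 3.50 and 2.95 CPM in Veh and 2.94 and 2.29 CPM in NRRA, a log2 difference of -0.29 (SE 0.20) with an adjusted p of 0.229. The higher NRRA library of mt-Nd4l lay just under the lower Veh library, and the difference was -0.17 without Veh replicate 1, -0.13 without NRRA replicate 2 and -0.49 without NRRA replicate 1, none of which passed the test. On the opposite strands, mt-Nd5 (11742 to 13565, plus) and mt-Nd6 (13552 to 14070, minus) overlap by 14 bases at their 3' ends. mt-Nd5 was at 4272 and 4232 CPM in Veh and at 3418 and 3392 CPM in NRRA and fell by 0.32 (log2, SE 0.018, adjusted p = 2.47e-14). mt-Nd6, the only mRNA whose gene lies on the minus strand, was at 1327 and 1304 CPM in Veh and at 1087 and 1071 CPM in NRRA and fell by 0.29 (log2, SE 0.021, adjusted p = 8.04e-12). Neither gene's groups overlapped.

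The last member of complex I, mt-Nd3 (9459 to 9806), had the fewest counts of the mRNAs. It was at 0.626 and 1.71 CPM in Veh and at 0.521 and 0.763 CPM in NRRA, so that the groups overlapped. The log2 difference was -0.88 with an SE of 0.42 and an adjusted p of 0.0783. This value rested on single libraries. It was 0.028 without Veh replicate 2, and it passed the test without Veh replicate 1 (-1.42) or without NRRA replicate 2 (-1.18).

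Complex III holds 1 mitochondrially encoded subunit, cytochrome b, encoded by mt-Cytb (14145 to 15288). It was at 5909 and 5534 CPM in Veh and at 4722 and 4810 CPM in NRRA. The groups did not overlap, and mt-Cytb fell by 0.26 on the log2 scale (SE 0.022, adjusted p = 2.52e-10), the smallest change in size among the 13.

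The 3 core subunits of complex IV, cytochrome c oxidase, all fell. mt-Co1 (5328 to 6872), the catalytic subunit, was at 10676 and 10575 CPM in Veh and at 8470 and 8456 CPM in NRRA, a log2 fold change of -0.33 (SE 0.016, adjusted p = 1.60e-15). mt-Co1 alone supplied 36.2% to 36.6% of the counts of the 13 mRNAs in each of the 4 libraries. mt-Co2 (7013 to 7696), the subunit that accepts electrons from cytochrome c, was at 17.8 and 17.1 CPM in Veh and at 12.7 and 11.8 CPM in NRRA (log2 fold change -0.51, SE 0.091, adjusted p = 2.89e-05). mt-Co3 (8607 to 9390) was at 17.7 and 17.4 CPM in Veh and at 11.2 and 11.7 CPM in NRRA (log2 fold change -0.62, SE 0.092, adjusted p = 2.10e-06). In none of the 3 did the groups overlap.

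Both members of complex V, the ATP synthase, passed the test. Their genes mt-Atp8 (7766 to 7969) and mt-Atp6 (7927 to 8607) overlap by 43 bases on the same strand, so that some fragments lie in both. mt-Atp6, part of the proton channel, was at 10.9 and 13.2 CPM in Veh and at 8.40 and 8.39 CPM in NRRA and fell by 0.53 (log2, SE 0.11, adjusted p = 0.000306). mt-Atp8 was at 1.92 and 2.18 CPM in Veh and at 1.38 and 0.796 CPM in NRRA, a log2 fold change of -0.90 (SE 0.29, adjusted p = 0.00974). The call of mt-Atp8 was lost with DESeq2 (adjusted p = 0.0690) and without NRRA replicate 2, where its log2 difference was -0.57 with an adjusted p of 0.149, and without NRRA replicate 1 it was -1.36.

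Of the counts of the 13 mRNAs, mt-Cytb supplied 19.2% to 20.7% and mt-Nd5 14.5% to 14.7%. mt-Nd1 supplied 12.58% and 12.62% in Veh and 11.47% and 11.37% in NRRA. These shares sum to 100 by construction, and no test was made on them.

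The 13 mRNAs fell into 2 ranges of level. Per kilobase of annotated length and averaged over the 4 libraries, 7 mRNAs lay between 1074 CPM per kilobase (mt-Nd4) and 6178 CPM per kilobase (mt-Co1). The other 6 lay between 2.603 (mt-Nd3) and 21.7 CPM per kilobase (mt-Co2), and the rRNAs lay between these ranges at 195 (mt-Rnr1) and 120 (mt-Rnr2). The order of the 6 low mRNAs was mt-Co2, mt-Co3 (18.5), mt-Atp6 (15.03), mt-Nd4l (9.84), mt-Atp8 (7.69) and mt-Nd3, and their genes follow each other on the mitochondrial map from 7013 to 10173. All 7 abundant mRNAs fell, with a median log2 fold change of -0.32 and SEs from 0.016 to 0.022. Of the 6 low mRNAs 4 fell and 2 did not pass the test, with a median of -0.57 and SEs from 0.091 to 0.42.

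**Figure D2:**
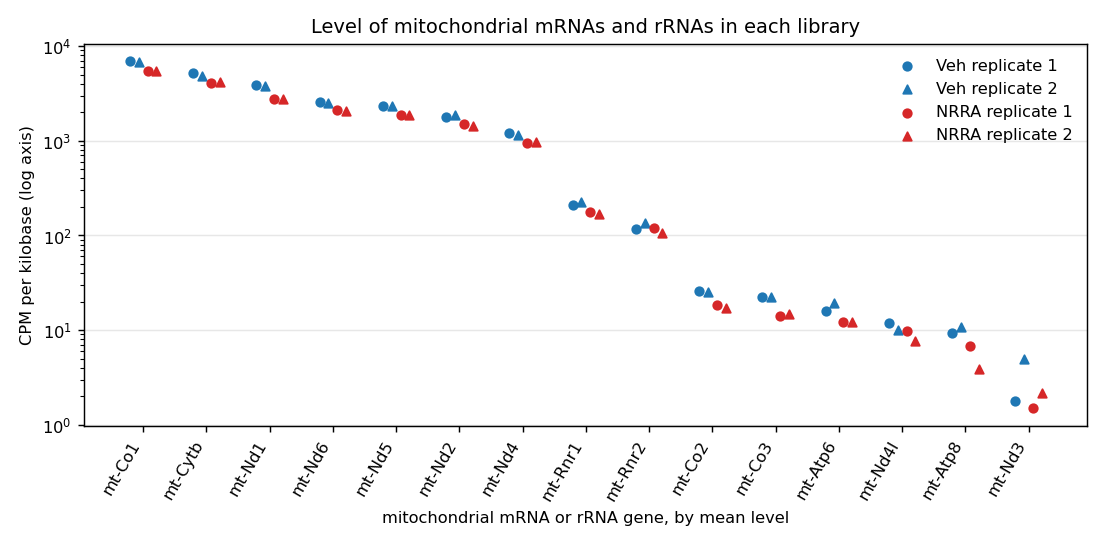
Level of the 13 mitochondrial mRNAs and 2 rRNAs in each library, in CPM per kilobase on a log axis, ordered along the x axis by mean level (blue Veh, red NRRA, circles replicate 1, triangles replicate 2). The 7 mRNAs at the left have means of 1074 to 6178 CPM per kilobase, the 2 rRNAs of 195 and 120, and the 6 mRNAs at the right of 21.7 or less.

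The stretch that holds the low mRNAs is also annotated in the nuclear genome. Transcripts of GENCODE M21 were searched for matches to the members of at least 95% identity over at least 100 bases, and 11 nuclear pseudogenes were found. Of these, 7 lie next to each other on the minus strand of chromosome 1, from 24611535 to 24616197 (4663 bases), in the same order and with nearly the same spacing as the mitochondrial genes between 6390 and 11042. The windows below compare 60 bases of a member, named first, with its copy, named second, and capitals mark every base that differs. mt-Co2 is shown because no base of the 681 aligned differed from Gm28661, mt-Nd3 because its single difference from Gm28438 (T3C, counted from the first base of the member) lies at its start, and mt-Cytb because its closest annotated copy, Gm11410 at 92.9% identity, differed at T564C, C567T, G570A and C591T within 1 such window.

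mt-Co2, 7323 to 7382: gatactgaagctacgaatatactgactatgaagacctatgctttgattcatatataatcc
Gm28661: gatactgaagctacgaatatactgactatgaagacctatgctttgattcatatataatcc
mt-Nd3, 9459 to 9518: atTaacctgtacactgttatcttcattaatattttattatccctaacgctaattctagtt
Gm28438: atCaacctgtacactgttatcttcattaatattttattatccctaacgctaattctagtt
mt-Cytb, 14687 to 14746: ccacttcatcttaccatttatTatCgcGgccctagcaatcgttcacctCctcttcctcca
Gm11410: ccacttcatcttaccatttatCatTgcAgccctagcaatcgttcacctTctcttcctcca

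Of the 6 low mRNAs, 5 were matched by the chromosome 1 copies over nearly their whole length. Of their 100-base windows, 99.5% for mt-Co2, 99.5% for mt-Atp6, 99.9% for mt-Co3, 97.6% for mt-Nd3 and 98.5% for mt-Nd4l occurred without a mismatch in an annotated nuclear transcript. For mt-Atp8 no match of at least 100 bases was found. The last 43 of its 204 bases, shared with mt-Atp6, belong to the stretch that Gm10925 copies without a mismatch, and the rest of the gene lies in the gap between the stretches copied in Gm28661 and Gm10925, which is 233 bases long both on the mitochondrial map and on chromosome 1. The nuclear genome sequence of that gap was not used here. Among the 7 abundant mRNAs the share of such windows was 60.8% for mt-Nd4, 30.8% for mt-Co1, 3.19% for mt-Nd2 and 0% for mt-Nd1, mt-Nd5, mt-Nd6 and mt-Cytb.

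**Figure D3:**
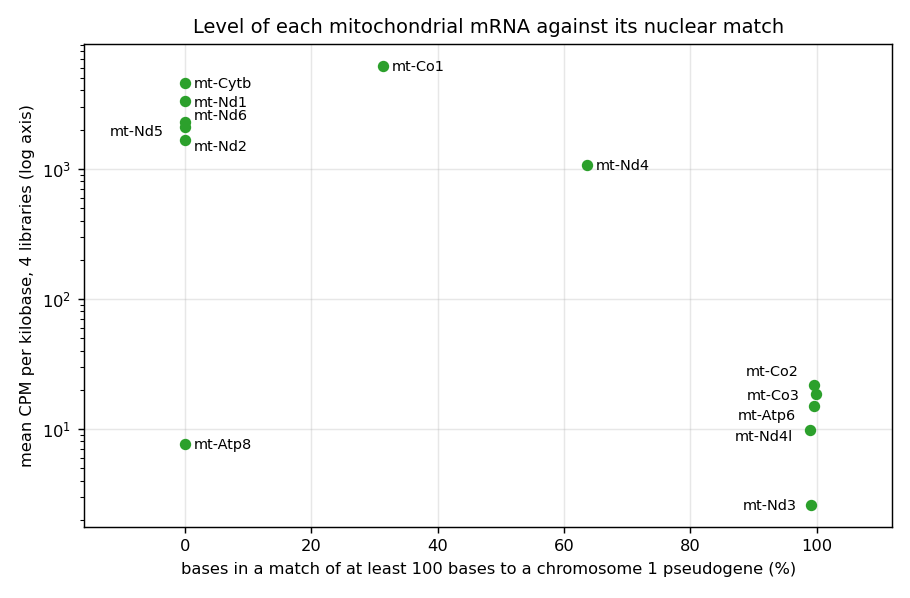
Mean level of each of the 13 mitochondrial mRNAs over the 4 libraries (CPM per kilobase, log axis) against the percentage of its bases that lie in a match of at least 100 bases to an annotated pseudogene of the chromosome 1 cluster. The 5 mRNAs matched over nearly their whole length lie at or below 21.7 CPM per kilobase, mt-Nd4 and mt-Co1 are matched in part and lie at 1074 and 6178, and mt-Atp8, at 7.69, is drawn at 0% because only its last 43 bases are matched, which is below that minimum.

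How read pairs that fit more than 1 place were counted was not given in the sources used here, and the part of the copies in the levels of the low mRNAs was not tested. The 7 copies on chromosome 1 themselves held 1767 and 2205 counts in Veh and 1686 and 1463 counts in NRRA, and the 6 low mRNAs held 1426 and 1625 counts in Veh and 1209 and 1077 counts in NRRA. Both sums were small beside the 800273 and 860354 counts that all 13 mRNAs held in Veh and the 758863 and 700936 counts that they held in NRRA. All 11 nuclear copies passed the filter, 8 were called lower and 0 higher, and their median log2 fold change was -0.36. When the counts of each copy were added to its mitochondrial gene, 12 of the 13 mRNAs were called lower and 0 higher. The one gained was mt-Nd3, at -1.02 (log2, SE 0.21, adjusted p = 0.000139).

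The 2 rRNAs, which form the RNA core of the small (mt-Rnr1) and large (mt-Rnr2) subunit of the mitochondrial ribosome, differed in their calls. mt-Rnr1 (70 to 1024) was at 199 and 213 CPM in Veh and at 171 and 160 CPM in NRRA. The groups did not overlap, and mt-Rnr1 fell by 0.32 on the log2 scale (SE 0.036, adjusted p = 2.32e-08). mt-Rnr2 (1094 to 2675) was at 185 and 215 CPM in Veh and at 191 and 169 CPM in NRRA, so that the groups overlapped. Its log2 difference was -0.15 (SE 0.12, adjusted p = 0.378). mt-Rnr2 was called lower without Veh replicate 1 (-0.25), without NRRA replicate 1 (-0.24) and without robust estimation (adjusted p = 0.0134), and it was at -0.040 without Veh replicate 2 and at -0.069 without NRRA replicate 2, neither of which passed the test, so the difference between the rRNAs in their calls depended on single libraries. Together the rRNAs held 0.0372% and 0.0415% of all counts in Veh and 0.0373% and 0.0340% in NRRA, a ratio of the means of 0.906. These shares describe what remained after oligo-dT capture and are not the share of rRNA in the cells.

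The tRNA genes carried few counts and showed no shared direction. Of the 22, 9 passed the filter, and among these 1 was called higher, 3 lower and 5 neither, with a median log2 fold change of -0.011. The 22 tRNA genes held 0.00594% and 0.00751% of all counts under Veh and 0.00700% and 0.00609% under NRRA. The ratio of the group means was 0.973, and it was 1.10 without Veh replicate 2 and 1.04 without NRRA replicate 2. A library of captured poly(A) RNA does not measure mature tRNA.

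The sequences of the 4 tRNA genes with the most counts are given here as annotated, 5′ to 3′ on the strand of the gene. Capitals mark bases that another member also covers, which in mt-Ts1 are the last 3 bases, opposite the end of mt-Co1. The gene of mt-Ty ends in CCA in the annotation, and it was the only 1 of the 22 to do so.

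mt-Te, tRNA for glutamate, 14071 to 14139, minus strand: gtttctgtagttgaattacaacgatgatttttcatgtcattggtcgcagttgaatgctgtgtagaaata
mt-Tp, tRNA for proline, 15356 to 15422, minus strand: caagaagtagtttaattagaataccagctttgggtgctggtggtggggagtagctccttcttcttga
mt-Ts1, tRNA for serine, 6870 to 6938, minus strand: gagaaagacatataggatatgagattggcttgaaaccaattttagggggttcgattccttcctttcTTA
mt-Ty, tRNA for tyrosine, 5260 to 5326, minus strand: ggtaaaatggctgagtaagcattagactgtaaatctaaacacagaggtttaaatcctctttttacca

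Of these 4, 1 rose and 2 fell. mt-Ty was at 8.77 and 7.75 CPM in Veh and at 12.5 and 10.3 CPM in NRRA and rose by 0.47 (log2, SE 0.12, adjusted p = 0.00158) without overlap. Its call was lost without NRRA replicate 1, where the log2 difference was 0.32 (adjusted p = 0.0661). mt-Ts1 was at 15.2 CPM in both Veh libraries and at 10.43 and 11.05 CPM in NRRA and fell by 0.51 (log2, SE 0.097, adjusted p = 7.49e-05). mt-Tp was at 16.02 and 19.81 CPM in Veh and at 14.8 and 12.6 CPM in NRRA and fell by 0.39 (log2, SE 0.10, adjusted p = 0.00217). The groups of mt-Ts1 and mt-Tp did not overlap, but the call of mt-Tp was lost without Veh replicate 2 (-0.22, adjusted p = 0.0853).

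mt-Te, which adjoins mt-Nd6 on the same strand, was uneven within both groups. It was at 17.8 and 29.6 CPM in Veh and at 26.7 and 20.4 CPM in NRRA, and the groups overlapped. The log2 difference was -0.011 (SE 0.37, adjusted p = 0.985). Leaving out Veh replicate 1 gave -0.32 and leaving out Veh replicate 2 gave 0.41, and both values passed the test, in opposite directions.

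The other tested tRNA genes had at most 49 counts in any library. mt-Tq, for glutamine, was at 0.921 and 1.51 CPM in Veh and at 0.951 and 1.39 CPM in NRRA (log2 difference -0.069, adjusted p = 0.879). mt-Tm, for methionine, was at 1.03 and 1.07 CPM in Veh and at 0.920 and 1.63 CPM in NRRA (0.26, adjusted p = 0.528). Their groups overlapped, as did those of mt-Tc, for cysteine, at 0.23 (log2, adjusted p = 0.783). mt-Ta, for alanine, was higher in both NRRA libraries without passing the test (0.47, adjusted p = 0.487), and leaving out Veh replicate 1 gave 0.16 and leaving out Veh replicate 2 gave 0.89. mt-Tw, for tryptophan, named after its values were seen, had 18 and 30 counts in Veh and 8 and 16 counts in NRRA and was called lower (log2 fold change -1.12, SE 0.46, adjusted p = 0.0420). That call was lost with DESeq2 (adjusted p = 0.184), with scaling by library totals alone (adjusted p = 0.0604), without Veh replicate 2 (-0.78) and without NRRA replicate 1 (-0.65), and the value was -1.76 without NRRA replicate 2.

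Counts at tRNA genes differed by strand. The 8 tRNA genes on the minus strand summed to 1606 and 2229 counts in Veh and to 2165 and 1700 counts in NRRA, and each had a count in at least 1 library. The 14 tRNA genes on the plus strand, where 12 of the 13 mRNAs and both rRNAs lie, summed to 59 and 78 counts in Veh and to 48 and 78 counts in NRRA. Of these 14, 9 had 0 counts in all 4 libraries, namely mt-Tf, mt-Tv, mt-Tl1, mt-Tk, mt-Tg, mt-Tr, mt-Th, mt-Ts2 and mt-Tl2, which allows a level of up to 0.0920 to 0.110 CPM per library. Those that remained without passing the filter were mt-Ti with 9, 3, 1 and 4 counts, mt-Td with 1, 0, 0 and 0 and mt-Tt with 3, 13, 9 and 9, and on the minus strand mt-Tn with 0, 5, 2 and 2, in the order Veh 1, Veh 2, NRRA 1 and NRRA 2. The preparation is described as stranded, the strand setting of the counting was not given in the sources used here, and its part in this difference was not tested.

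**Figure D4:**
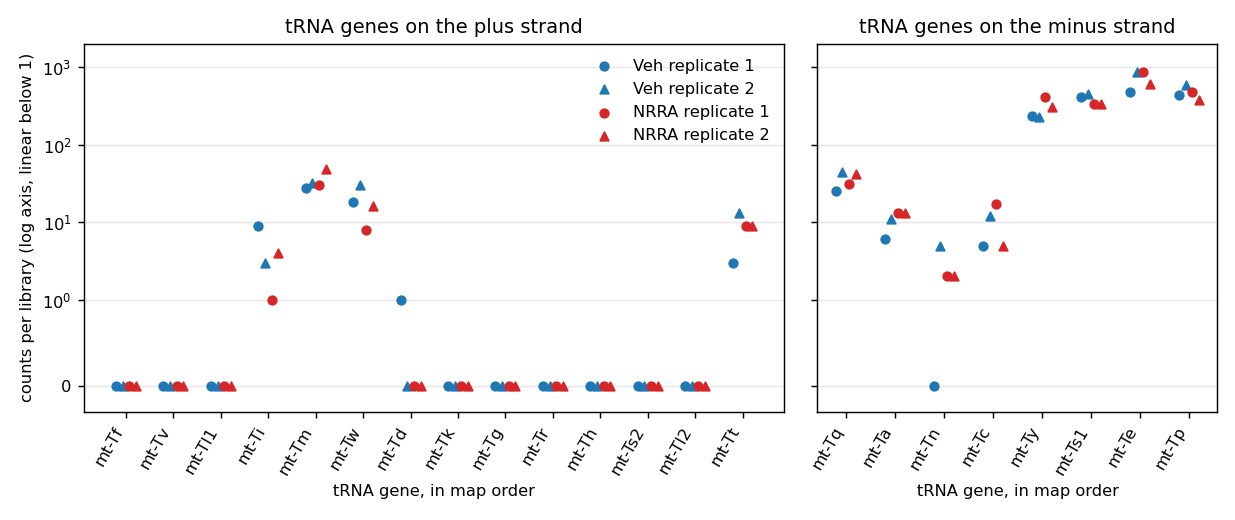
Counts of the 22 mitochondrial tRNA genes in each library (log axis, linear below 1), with the 14 genes of the plus strand in the left panel and the 8 genes of the minus strand in the right panel, both in map order (blue Veh, red NRRA, circles replicate 1, triangles replicate 2). On the plus strand 9 genes are at 0 in all libraries and no gene exceeds 49 counts, while mt-Te on the minus strand reaches 881.

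The nuclear-encoded subunits that join the mitochondrially encoded ones were set beside them. Of 73 such subunits in complexes I, III, IV and V, all tested, 33 were called lower, 12 higher and 28 neither, with a median log2 fold change of -0.092. With the 4 subunits of complex II the numbers were 34 lower, 13 higher and 30 neither of 77, with a median of -0.089. For complex I, 10 of 36 nuclear subunits fell, 7 rose and 19 did not pass the test (median -0.0059, from Ndufb4 at -0.51 to Ndufa1 at 0.74), against 5 of 7 mitochondrially encoded subunits lower and 0 higher (median -0.32). For complex II, which has no mitochondrially encoded subunit, 1 of 4 fell and 1 rose (median -0.029, from Sdhc at -0.11 to Sdha at 0.15), and the call of Sdhc was lost with DESeq2 (adjusted p = 0.107), with scaling by library totals alone (-0.016, adjusted p = 0.749, with the complex II median at 0.061), without Veh replicate 2 (-0.0748) and without NRRA replicate 2 (-0.0875). The balance of the nuclear complex I subunits depended on the scaling, since 17 were called higher and 5 lower with a median of 0.084 with library totals alone. The number of them called higher was 4 with DESeq2 and 4 without Veh replicate 2.

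For complex III, 3 of 9 nuclear subunits fell and 3 rose (median 0.022, from Uqcrq at -0.41 to Cyc1 at 0.30), against mt-Cytb at -0.26. For complex IV, 7 of 11 fell and 2 rose (median -0.15, from Cox7b at -0.63 to Cox6a1 at 0.13), against 3 of 3 mitochondrially encoded subunits lower (median -0.51). For complex V, 13 of 17 fell and 0 rose (median -0.24, from Atp5g1 at -0.81 to Atp5f1 at -0.0083, which did not pass the test), against 2 of 2 mitochondrially encoded subunits lower (median -0.71). With library totals alone the nuclear medians were 0.11 for complex III, -0.061 for complex IV with 4 called lower, and -0.15 for complex V, where Atp5f1 was then called higher (0.081, adjusted p = 0.0126). The complex III median was -0.023 without Veh replicate 1, and 1 complex IV subunit was called higher with DESeq2, without Veh replicate 1 and without NRRA replicate 2. The share of nuclear subunits called lower, 44.2% of the 77, stood beside the 28.4% of all genes given above. Scaled by library totals alone, 21 of the 77 were called lower and 25 higher with a median of 0.0012, while the 13 mitochondrial mRNAs had 11 lower and 0 higher with a median of -0.24. The complex IV median of -0.51 was the value of mt-Co2, a low mRNA, while the abundant mt-Co1 was at -0.33. Both complex V members were low mRNAs too, and mt-Atp8 lost its call with DESeq2 (adjusted p = 0.0690). The differences between mitochondrially and nuclear-encoded subunits were not tested.

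**Figure D5:**
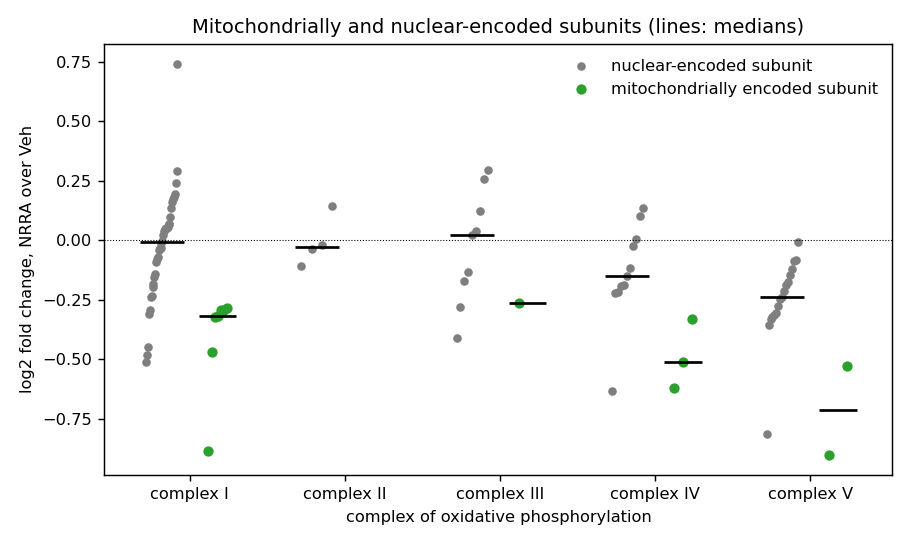
Log2 fold change (NRRA over Veh, y axis) of nuclear-encoded (grey) and mitochondrially encoded (green) subunits of each complex of oxidative phosphorylation (x axis), 1 point per gene, with a line at each median. In complexes I, III, IV and V the median of the mitochondrially encoded subunits is the lower one, at -0.32, -0.26, -0.51 and -0.71 against -0.0059, 0.022, -0.15 and -0.24. The medians of complexes IV and V rest on low mRNAs (mt-Co2, and mt-Atp6 with mt-Atp8), while the abundant mt-Co1 is at -0.33.

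Among 93 nuclear-encoded factors that maintain and express the mitochondrial genome, all tested, 42 were called lower, 15 higher and 36 neither, with a median log2 fold change of -0.13. These were 45.2% lower and 16.1% higher, beside 28.4% and 27.9% of all genes tested. Over all settings 33 to 44 were called lower and 9 to 21 higher. By list, the share called lower ran from 11.1% (transcription) to 58.5% (RNA processing), and that called higher from 0% (transcription) to 33.3% (biogenesis). In the list for transcription, 1 of 9 fell and 0 rose. Polrmt, the mitochondrial RNA polymerase, was at 68.2 and 66.9 CPM in Veh and at 72.1 and 70.4 CPM in NRRA (log2 difference 0.077, adjusted p = 0.143), and its partner Tfb2m had a log2 difference of 0.095 (adjusted p = 0.238). Both were called higher when libraries were scaled by their totals alone. Tfam, which packages mitochondrial DNA and starts transcription, was at 41.6 and 39.5 CPM in Veh and at 36.99 and 35.74 CPM in NRRA (log2 fold change -0.16, SE 0.059, adjusted p = 0.0258). The call of Tfam was lost with DESeq2 (adjusted p = 0.125), with scaling by totals alone (-0.066), without Veh replicate 1 (-0.12), without NRRA replicate 1 (-0.18) and without NRRA replicate 2 (-0.13). The extremes of that list, Tefm (0.12) and Mterf1b (-0.31), did not pass the test. With 1 library left out they ranged from 0.037 to 0.20 for Tefm and from -0.57 to -0.080 for Mterf1b.

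In the list for replication and maintenance, 7 of 18 fell and 2 rose (median -0.096). With library totals alone 4 were called lower and 5 higher (median -0.0062), and without Veh replicate 1 the median was -0.028. Polg, the catalytic subunit of the mitochondrial DNA polymerase, was at 155 and 152 CPM in Veh and at 188 CPM in both NRRA libraries and rose by 0.29 (log2, SE 0.031, adjusted p = 1.23e-08), the largest value in the list. Its accessory subunit Polg2 had the lowest, at -0.34 (adjusted p = 0.00406). The replicative helicase Twnk was at 111.6 and 105.3 CPM in Veh and at 89.3 and 90.4 CPM in NRRA and fell by 0.27 (log2, SE 0.040, adjusted p = 1.65e-06). Polg was thus higher and Twnk lower in both NRRA libraries than in both Veh libraries.

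In the list for RNA processing, modification and stability, 24 of 41 fell and 6 rose (median -0.24), and 20 were called lower with a median of -0.15 with library totals alone. Lrpprc, which stabilises mitochondrial mRNAs and is needed for their polyadenylation, was at 220 and 225 CPM in Veh and at 182 and 184 CPM in NRRA and fell by 0.28 (log2, SE 0.030, adjusted p = 7.35e-09). The extremes were Trmu, which thiolates tRNAs, at 0.68 (adjusted p = 4.47e-05) and the pseudouridine synthase gene Rpusd3 at -1.32 (adjusted p = 1.02e-10). In the list for translation, 7 of 16 fell and 4 rose (median -0.12), from Mtrf1, a release factor gene, at -0.63 to Guf1, a translation elongation factor gene, at 0.52. Of this list 2 were called higher with DESeq2 and 2 without NRRA replicate 2, and the median was -0.030 with library totals alone. The call of Mtrf1 was lost without Veh replicate 1 (-0.51, adjusted p = 0.0619). In the list of regulators of mitochondrial biogenesis, 3 of 9 fell and 3 rose (median 0.048). The number called higher was 1 with DESeq2, 1 without Veh replicate 2, 1 without NRRA replicate 1 and 2 without NRRA replicate 2, and 4 both without Veh replicate 1 and with library totals alone. The median was -0.012 without Veh replicate 1, 0.0019 without NRRA replicate 1 and 0.14 with library totals alone. Of the related coactivators, Ppargc1b was at 3.17 and 3.02 CPM in Veh and at 0.675 and 0.597 CPM in NRRA and fell by 2.27 on the log2 scale (SE 0.27, adjusted p = 8.25e-08). Ppargc1a, at 0.663 and 0.336 CPM in Veh and at 0.981 and 0.763 CPM in NRRA, did not pass the test (0.82, SE 0.43, adjusted p = 0.109). With 1 library left out its value ranged from 0.40 to 1.37, the latter without Veh replicate 1.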

How the data were processed

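The deposited values were raw counts in 1 table of all 4 libraries, whose columns were matched to samples by the descriptions of the samples. The submitters' processing notes name bcl2fastq, STAR 2.6.1c, featureCounts 1.6.4 and the build mm10, without roles. The annotation, the strand setting and the treatment of reads with several matches are not given in the sources used here. The methods of the study describe stranded libraries made by oligo-dT capture with a Tecan kit, and the labels name an Illumina TruSeq kit and also a NuGEN preparation.

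Genes that passed filterByExpr were scaled by TMM and tested with the robust quasi-likelihood F test of edgeR 4.0.16 in R 4.3.3 (limma 3.58.1), with Benjamini-Hochberg adjustment across the 20232 genes that passed and calls at an adjusted p under 0.05. The script was tested on simulated data. Fold changes compare NRRA with Veh, and SEs were derived from the F statistic. The test replaced DESeq2, which the study names, because each group has 2 libraries, and DESeq2 1.42.0 was an alternative. Other alternatives were scaling by library totals, by DESeq2 size factors or from nuclear genes alone, no filter or a filter of 1 CPM in 2 libraries, no robust estimation, the replicate number as a block, each library left out, and, chosen after the data were seen, the counts of nuclear copies added to their mitochondrial gene. Sequences and coordinates came from GENCODE M21 (GRCm38), in which all 37 identifiers were found, and nuclear copies were found with BLAST 2.17.0 among its transcripts.

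The members and lists were chosen with earlier results of these data known. Values per library were given for all protein-coding and rRNA genes and for the 6 tested tRNA genes of highest mean CPM. Of the nuclear lists, Polrmt, Tfam, Tfb2m, Polg, Twnk, Lrpprc were named, and in each list the members with the highest and lowest log2 fold change.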

Additional observations from a re-analysis of the deposited data

How the results depend on the processing

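The 11 lower and 0 higher calls among the mitochondrial mRNAs changed little in number, to 10 to 12 lower and 0 higher under all alternatives, and their median log2 fold change stayed below 0, at -0.24 with library totals alone and between -0.47 and -0.33 when 1 library was left out. The number of tRNA genes called higher was 0 to 2 and of those called lower 1 to 4 with 1 library left out, and their median ranged from -0.35 to 0.34. The ratio of their share of counts ranged from 0.871 to 1.10 and was above 1 without Veh replicate 2 (1.10) and without NRRA replicate 2 (1.04). The number of rRNAs called lower was 2 without robust estimation and 1 to 2 with 1 library left out. DESeq2 called 9 of the nuclear factors higher. With library totals alone 25 nuclear subunits were called higher and 21 lower with a median of 0.0012, and the median of the nuclear factors was -0.036. With 1 library left out these medians ranged from -0.11 to -0.082 and from -0.16 to -0.10.

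Single genes changed sign as follows. With library totals alone the log2 difference was 0.078 for mt-Te, 0.020 for mt-Tq and 0.081 for Atp5f1. With 1 library left out it ranged from -1.42 to 0.028 for mt-Nd3, from -0.32 to 0.41 for mt-Te, from -0.37 to 0.34 for mt-Tq, from -0.19 to 0.63 for mt-Tm and from -0.82 to 0.90 for mt-Tc. Of 293 alternative values of mitochondrially encoded genes, 267 kept their direction and call. The causes were not tested.

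The deviations of libraries with the same replicate number were not correlated (r = -0.011 across genes), so the numbers were not taken as pairs. The replicate numbers are those of the sample titles. The descriptions and column names number the Veh libraries 2 and 3, and under those numbers other libraries would share a number. With the replicate number as a block, 11 mRNAs, 1 rRNA and 3 tRNA genes were called lower and 1 tRNA gene higher, and mt-Te had a log2 difference of 0.0064. Where 1 library was left out, the lone library of its group was assumed to vary like the other group. Low counts limit mt-Nd3 and the 13 tRNA genes that were not tested.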
